A study of Mus musculus with 4 samples.

Results

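Zfp genes are mouse genes whose symbol is Zfp and a number, the name given to many zinc finger proteins. The genes described here were chosen by that symbol, a protein-coding entry in GENCODE M21 and at least 40 reads summed over 4 Nanopore long-read libraries of neural stem cells. By this rule 219 genes were kept, of 312 protein-coding Zfp genes in the table and 394 in the annotation. The other 93 in the table had fewer than 40 reads. Because the members were selected on their summed reads, that sum is a description only. Just inside the limit were Zfp51 with 41 reads and Zfp960 and Zfp983 with 40 each, and just outside it were Zfp41, Zfp947 and Zfp951 with 39 each.

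The libraries were made from total RNA of primary neural stem cells grown from the embryonic mouse neocortex, with 1 library for each of 4 groups and 3 days of treatment with lipid nanoparticles (LNP). The control cells carried loxP-flanked alleles of Tut1 (Tut1f/f), which encodes a terminal uridylyltransferase that acts on U6 snRNA, and were given empty LNP. Tut1f/f cells given Cre mRNA by LNP are labelled Tut1 KO. The same treatment of cells with floxed alleles of the p53 gene Trp53 (p53f/f) is labelled P53 KO, and that of cells floxed for both genes is labelled Tut1 and P53 KO, called double KO here. No group combined a genotype without floxed alleles with Cre, and cells of the control group received no Cre, so that Cre and the deletion cannot be told apart against the control. With 1 library a group there is no replicate check. A ratio between libraries therefore stands beside a 95% interval for counting error only, and since amplified copies of 1 molecule were not told apart, the true error can be larger.

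Zinc fingers are short protein loops held by a zinc ion. In the common C2H2 type, a pair of cysteines and a pair of histidines bind the zinc, and arrays of such fingers bind DNA. Many Zfp proteins of this type also carry a KRAB domain, which recruits the corepressor Trim28 and with it histone methylation, and they are known for silencing retroelements and keeping imprints. Other Zfp genes encode RNA-binding proteins, ribosome factors or CCCH fingers, which bind AU-rich mRNA and speed its decay.

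The libraries held between 2863392 and 4244467 reads that named a gene, and the share of all reads that named none was 17.2% in the control and 30.2%, 28.9% and 27.3% in the libraries labelled Tut1 KO, P53 KO and double KO, so that the control stood apart. The part of this in the differences below was not tested. Reads of the targeted genes did not follow every label. Tut1 had 37 reads in the control library, 11 in the library labelled Tut1 KO, 14 in that labelled P53 KO and 27 in that labelled double KO, which is 9.0 CPM (reads scaled to 1000000 reads naming a gene, with TMM) in the last against 9.22 CPM in the control. Trp53 had 175, 67, 10 and 19 reads in the same order. A read of a gene that lacks the deleted exons is counted like any other, so these counts are a limited check. Xist had 44 and 49 reads in the libraries labelled Tut1 KO and P53 KO and 0 in the other 2, while 4 Y-linked genes together had 370 reads in the control library, 264 in that labelled double KO and 0 in the other 2. Tut1 KO against the control thus went from Y-linked reads to Xist reads and double KO against P53 KO the other way, so that a difference in the sex of the source cells and the deletion of Tut1 cannot be told apart in either pair. The 8 neural stem cell markers summed to between 11757 and 13097 CPM, with Fabp7 at 39422 reads in the control library and a log2 ratio of 0.02 for Tut1 KO. Of the others, Vim stood at -0.72 in Tut1 KO against the control. Over the 8 markers, the median log2 ratio to the control was 1.0 in Tut1 KO, 0.89 in P53 KO and 0.42 in double KO, with 4, 3 and 1 of 8 at least 2-fold higher and 0, 0 and 1 lower, where 13.1%, 13.2% and 10.1% of all genes were higher and 12.8%, 14.3% and 9.94% lower. By contrast, the 5 neuronal markers summed to at most 21.7 CPM and the 4 microglial markers had 0 reads. Of the 3 astrocyte markers, Aldh1l1 had 187, 16, 11 and 71 reads in the control, Tut1 KO, P53 KO and double KO libraries, Aqp4 had 0, 4, 3 and 1, and Gfap had 0 in each, and they summed to between 4.10 and 46.6 CPM. The 4 markers of the oligodendrocyte lineage summed to 256, 474, 578 and 365 CPM, nearly all from Olig2. Aldh1l1 and Olig2 thus differed between the libraries, with double KO nearer to the control than the other 2, and their part in the differences below was not tested. In such bulk samples, fewer cells of a type and less RNA per cell cannot be told apart.

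The coding sequences of the members show the 2 main kinds of finger. Each line below gives 1 finger from the GENCODE M21 transcript of a highly read member, written 5′ to 3′ on the coding strand, with the codons for the 4 residues that hold the zinc in capitals. Zfp664, the member with most reads, shows the C2H2 type (GRCm38 chr5:124885556-124885618, plus strand), and Zfp36l1 shows the CCCH type (GRCm38 chr12:80110189-80110248, minus strand).
Zfp664: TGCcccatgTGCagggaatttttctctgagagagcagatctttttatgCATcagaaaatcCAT
Zfp36l1: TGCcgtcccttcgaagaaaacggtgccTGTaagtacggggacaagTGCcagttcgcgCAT

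Of the 219 members, 214 held at least 1 match to the C2H2 spacing, with a median of 10 fingers and at most 36. The end of the KRAB A box, searched as the residues L, Y, any 2, V, M, any and E, was found in 106 members and not in 113. It was found in 145 of the 9016 protein-coding genes with 40 or more reads and a complete coding sequence, so most genes with the match were Zfp genes. Members with the match had a median of 12 fingers and the others of 7. Members with the match were also at lower levels, with median values of 7.85, 7.64, 6.88 and 7.33 CPM in the control, Tut1 KO, P53 KO and double KO libraries, against 10.7, 13.6, 13.2 and 12.3 CPM for the others.

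Zfp genes made up a small share of the reads in every library. They took 0.330% of the reads naming a gene in the control library (95% Wilson interval 0.324% to 0.335%), 0.394% (0.387% to 0.401%) in the library labelled Tut1 KO, 0.364% (0.357% to 0.370%) in that labelled P53 KO and 0.390% (0.383% to 0.397%) in that labelled double KO. The control value was below the other 3, with intervals that did not overlap, and the Tut1 KO and double KO intervals overlapped each other. This grouping depends on the reads counted. As a share of protein-coding reads the values were 0.450%, 0.511%, 0.468% and 0.471% in the same order, with double KO beside P53 KO and below Tut1 KO. All 219 members had at least 1 read in each library, and the median member had 31 to 37 reads. The 8 members with most reads took 23.9% of all member reads.

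Among these, Zfp664 had 811, 547, 628 and 496 reads in the control, Tut1 KO, P53 KO and double KO libraries, or 202, 182, 184 and 165 CPM. Its level in the 3 libraries with Cre lay slightly below the control, and each interval of the log2 ratio of the Tut1 KO (-0.15, -0.31 to 0.01) and P53 KO (-0.14, -0.29 to 0.02) libraries to the control spanned 0, while that of double KO (-0.29, -0.45 to -0.13) did not. Zfp207, which encodes a spindle and splicing factor (BuGZ), stood at 204, 112, 71.7 and 160 CPM. It was lowest in the library labelled P53 KO, with a log2 ratio to the control of -1.51 (-1.72 to -1.30), and the library labelled double KO was 1.16 (0.94 to 1.39) above P53 KO. Zfp706 stood at 174, 99.3, 126 and 119 CPM, highest in the control. Zfp938 stood at 54.6, 78.7, 69.1 and 69.7 CPM, lowest in the control.

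The comparison of Cre-treated with control Tut1f/f cells asks which Zfp genes differ when Tut1 is targeted. On the rule that a gene is at least 2-fold apart with an interval that excludes no change, 39 of the 218 members that passed the expression filter were higher and 9 were lower in the library labelled Tut1 KO than in the control. Over all 9882 genes tested, 13.1% were higher and 12.8% were lower on the same rule, against 17.9% and 4.13% of the Zfp genes. The median log2 ratio was 0.23 for the Zfp genes tested and 0.02 for all genes tested, on values to which 0.5 CPM was added. The double KO and P53 KO libraries make the other comparison of Tut1, in cells with Trp53 targeted, and share no library with the first. There 12 members were higher and 2 lower, of a background of 4.07% and 3.01% of all genes, and the median of the Zfp genes tested was -0.01 against -0.02 for all genes.

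Other pairs of libraries gave the following counts. In the library labelled P53 KO against the control, 28 Zfp genes were higher and 20 lower, where 13.2% of all genes were higher and 14.3% lower. Against the same control, the library labelled double KO had 29 Zfp genes higher and 10 lower, where the background was 10.1% higher and 9.94% lower. With library totals in place of TMM scaling, which moved the median of all genes by 0.14 in this pair, the counts were 40 and 7. These pairs share the control library with the first, so they are not separate evidence. Between libraries that both had Cre, few Zfp genes passed: 4 were higher and 6 lower in double KO against Tut1 KO (background 2.06% and 2.52%), and 10 were higher and 4 lower in Tut1 KO against P53 KO (background 2.13% and 1.25%).

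**Figure D1:**
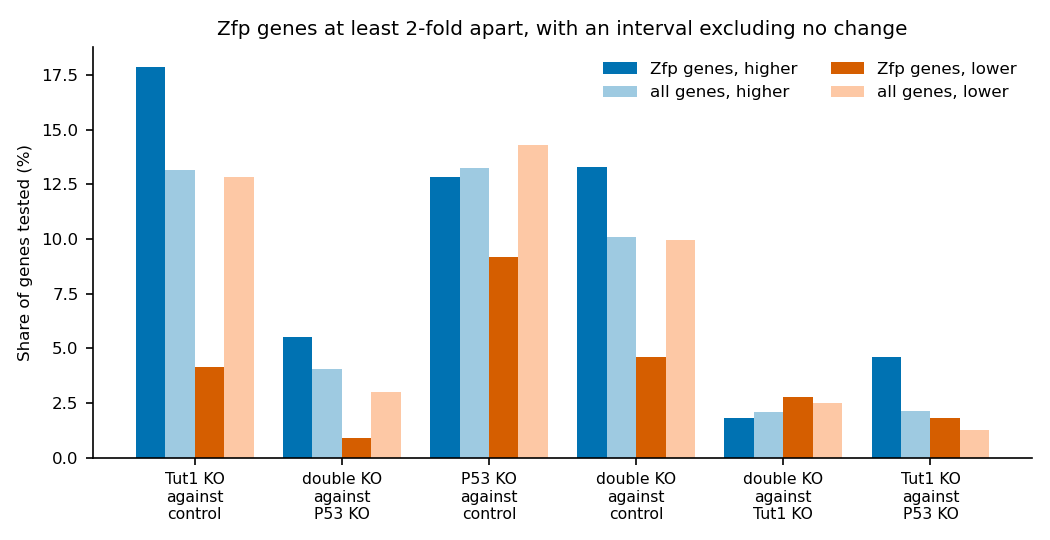
Share of genes (%, vertical axis) at least 2-fold higher or lower with a 95% counting interval that excludes no change, for 218 Zfp genes and all 9882 genes tested, in 6 pairs of libraries. Each bar is 1 count from 1 library against 1, with no replicate. Against the control the share of Zfp genes that were lower stood below that of all genes, 4.13% against 12.8% for the Tut1 KO library.

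The fit over all 4 libraries called no Zfp gene. This edgeR quasi-likelihood fit had a term for Tut1 status and 1 for Trp53 status, which leaves 1 residual degree of freedom. At a 5% false discovery rate and a change of at least 2-fold, it called 0 of 9882 genes for Tut1 status (0% of genes). With no limit on the fold, 171 genes were at an unadjusted p under 0.05 for Tut1 status. For Trp53 status it called 1 gene (0.0101%), which was no Zfp gene. DESeq2 called 0 genes and 1 gene and no Zfp gene either. Fits of 1 term without 1 library leave 1 library in a group, so their counts are not given. In the edgeR fit over all 4 libraries 147 genes were at an unadjusted p under 0.05 for Trp53 status. Of the Zfp genes, 1 was at that level for each term. For Tut1 status it was Zfp704, with a log2 change of 1.51 ± 0.72 (SE, adjusted p = 1 by edgeR), and for Trp53 status Zfp292, with 1.80 ± 0.80 (SE, adjusted p = 1.0 by edgeR). All other values compare libraries, not conditions.

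In Tut1 KO against the control, the 3 members furthest apart had transcripts over 6000 bases and few reads in the control, which does not hold for all members described here. Zfp292, which encodes a large transcription factor, had 3 reads in the control library and 28, 42 and 34 in the libraries labelled Tut1 KO, P53 KO and double KO. Its log2 ratio was 3.64 (1.94 to 6.0) for Tut1 KO and 4.04 (2.39 to 6.37) for P53 KO against the control. The 3 libraries with Cre did not differ among themselves beyond these wide intervals, and double KO against P53 KO gave -0.12 (-0.81 to 0.57). Zfp654 had 3, 20, 20 and 21 reads, with 3.15 (1.40 to 5.55) for Tut1 KO and 2.97 (1.22 to 5.36) for P53 KO. Zfp704 had 9, 53, 43 and 46 reads, with 2.97 (1.94 to 4.18) and 2.49 (1.43 to 3.71).

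Other members of the first 8 by size were likewise chosen by their ratio of Tut1 KO to the control, which favours genes with few control reads, so that their place in the control is a description. Zfp322a had 13, 45, 51 and 37 reads, and its log2 ratio to the control was 2.21 (1.29 to 3.22) in Tut1 KO and 2.20 (1.30 to 3.21) in P53 KO. Zfp407, which encodes a protein with 22 finger matches, had 16, 56, 40 and 38 reads, and Zfp738 had 16, 49, 37 and 30. Among the 3 libraries with Cre, both had the most reads in that labelled Tut1 KO. Zfp599 had 5, 17, 13 and 15 reads and Zfp59 had 9, 27, 13 and 14, with ratios for Tut1 KO of 2.18 (0.68 to 3.97) and 2.0 (0.87 to 3.27). For Zfp59 the ratio of P53 KO to the control was 0.76 (-0.58 to 2.17), an interval that includes no change. In P53 KO against the control, Zfp652 was among the 8 furthest apart, with 8, 13, 30 and 16 reads and 2.14 (0.98 to 3.48).

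Some members were nearly absent from 1 library. Zfp740 had 37 reads in the control, 8 in Tut1 KO, 1 in P53 KO and 15 in double KO, so that the log2 ratio of P53 KO to the control was -4.98 (-10.32 to -2.41) and that of double KO to P53 KO was 4.09 (1.39 to 9.49). Zfp960, with the KRAB match and just inside the read limit, had 18, 8, 1 and 13 reads, and its ratio of double KO to P53 KO was 3.89 (1.15 to 9.30). Both rest on a single read in the library labelled P53 KO. Zfp213 had 19, 21, 14 and 3 reads, lowest in double KO, at -2.03 (-4.48 to -0.19) against P53 KO. Zfp623 had 22, 14, 4 and 7 reads, at -2.23 (-4.22 to -0.67) in P53 KO against the control.

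In 3 other members that were higher in double KO than in P53 KO, the P53 KO value was the lowest of the 4. The choice by this ratio favours genes with few reads in P53 KO, so that their place there is a description. Zfp184 had 18, 10, 7 and 19 reads, at 1.63 (0.32 to 3.12) in double KO against P53 KO, and Zfp955b had 34, 20, 14 and 37, at 1.59 (0.67 to 2.59). Zfp868 had 34, 39, 18 and 42 reads, at 1.41 (0.58 to 2.29). Zfp748 had 23, 35, 23 and 60 reads and was highest in double KO, at 1.57 (0.86 to 2.33). Zfp51 had 16, 4, 6 and 15 reads and was lowest in Tut1 KO.

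**Figure D2:**
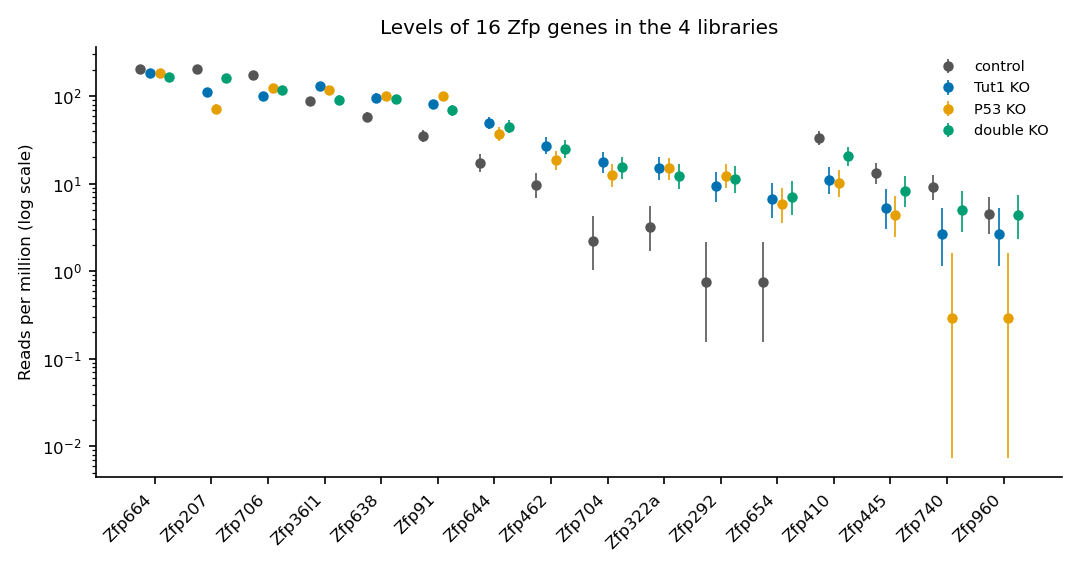
Level in CPM (vertical axis, log scale) of 16 named Zfp genes in the control, Tut1 KO, P53 KO and double KO libraries, 1 point a library, with bars for the exact 95% Poisson interval. Zfp704, Zfp322a, Zfp292 and Zfp654 are lowest in the control, and Zfp740 and Zfp960 drop to 1 read in the P53 KO library.

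Differences from the control moved with the length of the transcript, in Zfp genes and in all protein-coding genes alike. The length was that of the GENCODE transcript with the longest complete coding sequence, with a median of 3160 bases for the Zfp genes against 2764.5 bases for all protein-coding genes with 40 or more reads. In Tut1 KO against the control, the median log2 ratio was -0.34 for the 33 Zfp genes of up to 2000 bases, 0.06 for the 65 with more and up to 3000 bases, 0.30 for the 55 up to 4000 bases, 0.36 for the 39 up to 6000 bases and 0.95 for the 27 over 6000 bases. For all protein-coding genes the medians in the same classes were -0.25, -0.27, 0.01, 0.27 and 0.79. Thus the medians of the Zfp genes lay above those of all genes of the same class in 4 of the 5 classes and below them in the shortest. In P53 KO against the control, the shortest and the longest Zfp genes had medians of -0.47 and 0.81, and in double KO of -0.08 and 0.76. Between double KO and P53 KO the corresponding medians were 0.08 and 0.00. Across the 219 genes Spearman's rho of length with the log2 ratio was 0.41 for Tut1 KO against the control and -0.18 for double KO against P53 KO. For all 9016 genes it was 0.32 and -0.14, and these genes share their libraries, so the values are descriptions. The part of transcript length in the ratios of single genes was not tested. Among the members named above, Zfp292, Zfp654, Zfp704, Zfp407, Zfp738 and Zfp652 had transcripts over 6000 bases, and Zfp740 one of 989 bases.

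**Figure D3:**
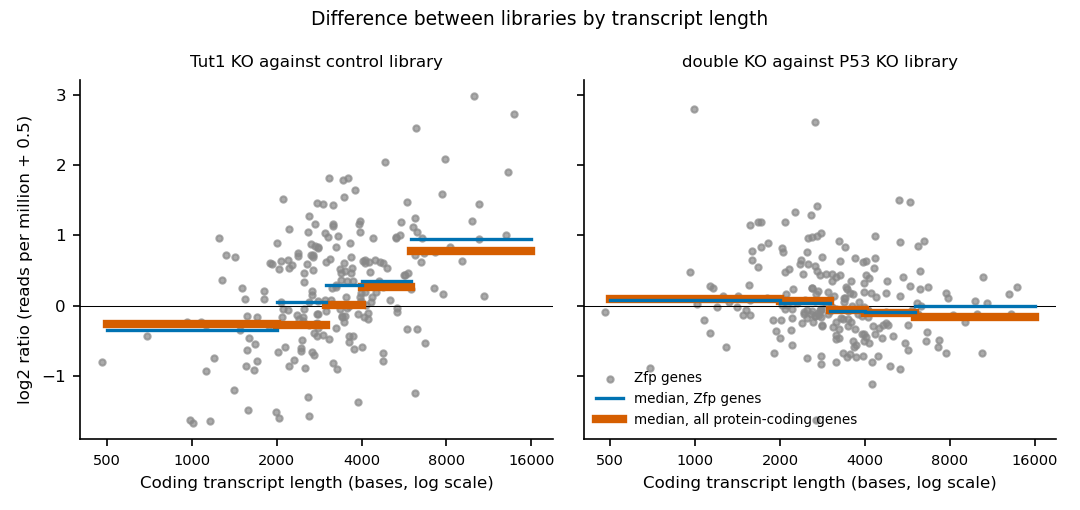
log2 ratio of CPM + 0.5 (vertical axis) against the length of the coding transcript (bases, log scale) for 219 Zfp genes, in Tut1 KO against control and in double KO against P53 KO. Lines are medians in 5 length classes for Zfp genes and for all protein-coding genes with 40 or more reads, which go from -0.34 in the shortest to 0.95 in the longest class and from -0.25 to 0.79 on the left and lie between -0.16 and 0.09 on the right.

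Grouped by role, 32 of 46 listed Zfp genes were members, 3 had fewer than 40 reads and 11 have no row in the table and were not analysed here. None of the list counts below has a test. The neural and progenitor transcription factors had 9 members, of which 4 were higher and 0 lower in Tut1 KO against the control, where 13.1% of all genes were higher and 12.8% lower, with a median log2 ratio of 0.54 against 0.02 for all genes. The same shares and median of all genes apply to the counts of the other lists in this pair. In double KO against P53 KO 0 of 9 passed, where 4.07% of all genes were higher and 3.01% lower, and the median was -0.11. In double KO against the control 4 were higher and 1 lower, of a background of 10.1% and 9.94%, and 4 of the 9 ratios were above 0, with a median of -0.0046. Besides Zfp292 and Zfp704, the genes higher in Tut1 KO were Zfp462, a chromatin regulator of neural development with 39, 82, 64 and 75 reads, and Zfp148, a factor that binds GC-rich promoters with 25, 45, 55 and 51 reads. Their ratios for Tut1 KO were 1.49 (0.92 to 2.08) and 1.26 (0.53 to 2.03), and both have transcripts over 6000 bases. The related factors Zfp521 and Zfp423, which carry long arrays of fingers and bind early B-cell factors, had 45, 36, 45 and 29 reads and 25, 28, 28 and 13 reads. Neither passed in Tut1 KO against the control, with intervals of -0.58 to 0.76 and -0.25 to 1.42.

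In this list Zfp24, which is needed for progenitor growth and myelination, stood at 87.9, 105, 91.3 and 87.7 CPM, at 0.26 (0.04 to 0.48) for Tut1 KO against the control. Zfp219, a partner of Sox9, had 223, 155, 150 and 80 reads and was lowest in the library labelled double KO, at -0.72 (-1.13 to -0.32) against P53 KO. Zfp365, a centrosomal protein of neurons, had 187, 175, 154 and 111 reads, and its coding sequence held 0 matches to the C2H2 spacing.

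The chromatin, SUMO and ubiquitin partners had 7 members, of which 3 were higher and 1 lower in Tut1 KO against the control, with a median of 0.77 (all genes 13.1%, 12.8% and 0.02). Zfp91, which encodes a ubiquitin ligase, had 141, 243, 339 and 207 reads and a log2 ratio of 1.20 (0.90 to 1.51) for Tut1 KO and 1.5 (1.21 to 1.79) for P53 KO. Zfp644, a partner of the G9a and GLP histone methyltransferases, had 70, 149, 126 and 135 reads, at 1.51 (1.09 to 1.94) for Tut1 KO. Zfp451, a SUMO ligase, had 63, 99, 88 and 89 reads, at 1.07 (0.60 to 1.55). All 3 were lowest in the control library. Zfp592 and Zfp532, which belong to one chromatin complex, had 18, 24, 23 and 14 reads and 72, 86, 128 and 68 reads, and Zfp532 passed in P53 KO alone, at 1.06 (0.63 to 1.5) against the control. Zfp131, a POZ-domain factor, had 34, 27, 38 and 37 reads and passed in none of the 3 pairs.

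Zfp410 went the other way. It had 134 reads in the control and 33, 35 and 62 in Tut1 KO, P53 KO and double KO. Its log2 ratio was -1.61 (-2.20 to -1.05) for Tut1 KO and -1.70 (-2.28 to -1.16) for P53 KO against the control, while double KO lay 1.01 (0.39 to 1.65) above P53 KO. Zfp410 is known as an activator of Chd4, the ATPase of the NuRD complex. Chd4 had 313, 683, 872 and 533 reads, lowest in the control, at 1.54 for Tut1 KO and 1.71 for P53 KO.

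The list of RNA processing, ribosome and RNA-binding factors had 10 members, with 1 higher and 1 lower in Tut1 KO against the control, near the shares of all genes (13.1% and 12.8%), and a median of 0.06. Zfp593, a factor of 60S ribosome assembly, was the lower gene, with 49, 12, 24 and 15 reads and a log2 ratio of -1.61 (-2.66 to -0.68). Zfp346, which binds double-stranded RNA, was the higher one, with 27, 41, 40 and 39 reads and 1.02 (0.28 to 1.78). Zfp598, the ligase that marks stalled ribosomes, had 237, 173, 234 and 180 reads, and its ratio for Tut1 KO was -0.04 (-0.33 to 0.25). Zfp622, another 60S assembly factor, had 54, 73, 73 and 62 reads, at 0.85 (0.32 to 1.39).

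Within this list the genes with long transcripts, Zfp638 and Zfp106, were lowest in the control. Zfp638, an RNA-binding protein that silences unintegrated retroviral DNA, had 232, 288, 347 and 275 reads, at 0.73 (0.47 to 0.98) for Tut1 KO, and Zfp106 had 77, 91, 110 and 82, at 0.66 (0.20 to 1.11). The splicing factor genes Zfp830 and Zfp207 and the nucleolar Zfp330, all with transcripts of up to 2000 bases, were highest in the control or in double KO. Zfp830 had 109, 59, 51 and 78 reads and Zfp330 had 236, 121, 154 and 199. The shortest transcript of the list, that of Zfp346, had its lowest level in the control, at 6.73, 13.6, 11.7 and 13.0 CPM. Zfp326, part of a complex that links RNA polymerase II to splicing, had 136, 114, 126 and 116 reads, or 33.9, 37.9, 36.9 and 38.7 CPM, and its intervals spanned 0 in the 3 pairs named.

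The CCCH decay factors had 2 members, and neither passed in any pair. Zfp36l1, whose finger is printed above, stood at 86.9, 132, 117 and 91.3 CPM, at 0.60 (0.39 to 0.81) for Tut1 KO against the control and -0.36 (-0.59 to -0.13) for double KO against P53 KO. Zfp36 stood at 10.7, 8.97, 11.4 and 11.0 CPM.

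The KRAB genes known for imprints and retroelements had 4 members, of which 1 was lower in Tut1 KO against the control. This was Zfp445, which protects imprints and whose coding sequence lacks the KRAB match used here, with 53, 16, 15 and 25 reads and ratios of -1.31 (-2.22 to -0.48) for Tut1 KO and -1.59 (-2.52 to -0.74) for P53 KO. Zfp57, the other imprint factor, had 23, 18, 14 and 15 reads and an interval for Tut1 KO of -0.91 to 1.02. Zfp809, which silences murine leukaemia virus, had 39, 48, 35 and 34 reads, at 0.71 (0.08 to 1.36). Zfp932 had 175, 205, 179 and 219 reads, at 0.64 (0.35 to 0.94). These 3 passed the 2-fold rule in none of the 6 pairs.

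The members were also split by the KRAB match, with no test of the difference. The median log2 ratio of Tut1 KO to the control was 0.20 for the 106 members with the match and 0.25 for the 113 without, with 12 higher and 4 lower among those with the match and 27 higher and 6 lower among the others, where 13.1% of all genes were higher and 12.8% lower. These counts are over all 219 members, of which 1 lower gene did not pass the expression filter. With the start of the A box searched in place of its end, the difference between the medians turned from -0.05 to 0.20. In P53 KO against the control the medians were 0.08 and 0.22, with 6 higher and 11 lower among those with the match and 22 higher and 10 lower among the others, where 13.2% of all genes were higher and 14.3% lower. In double KO against P53 KO they were 0.04 and -0.05. The KRAB corepressor genes, which are not Zfp genes, numbered 16, of which 2 were higher and 1 lower in Tut1 KO against the control, with a median of 0.28. The higher genes were Chd4 and Fam208a. Fam208a had 2 reads in the control and 11 in Tut1 KO and did not pass the expression filter. Chd3, with 1 read in P53 KO and 0 in the others, is counted among the 16. Trim28 had 11, 11, 10 and 10 reads, and Setdb1, the histone methyltransferase it recruits, had 67, 50, 43 and 34. Uhrf1, which maintains DNA methylation, was the lower gene, with 220, 21, 33 and 66 reads and -2.97 for Tut1 KO. In double KO against P53 KO it passed the rule upward, at 1.19 (0.56 to 1.84).

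With gaps of no more than 500000 bases, 74 of the 219 Zfp genes stood in 9 groups of at least 5 members and 89 stood alone. Chromosome 7 held 48 members and chromosome 17 held 31. The 4 such groups on chromosome 7 had median log2 ratios from -0.59 to 1.21 in Tut1 KO against the control, with no test of their difference. The 7 members at chr7:27689340-28380253 (GRCm38) had a median log2 ratio of 1.21, with 4 past the rule upward and 0 downward, and the 6 at chr7:24081924-24515682 had a median of -0.59, with 0 upward and 2 downward, of which Zfp180 did not pass the expression filter. The other 2 groups had medians of -0.15, with 1 upward and 0 downward, and 0.46, with 0 upward and 1 downward, where 13.1% and 12.8% of all genes passed upward and downward. The median transcript lengths of the first and second were 3940 and 2986 bases. In the largest group, 17 members at chr17:21008903-23599487 of which 14 held the KRAB match, the median was 0.44 with 3 upward and 0 downward. In double KO against P53 KO the medians of the first, the second and this largest group were -0.05, 0.18 and -0.02. Members of a cluster are often similar in sequence, and how reads that fit more than 1 of them were counted is not given in the sources used here, so their single values are uncertain.

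Each long read that named a gene was also counted under an isoform. A read is not a molecule, since amplified copies were not told apart. How reads that cover only part of a transcript were assigned is not given in the sources used here. In the members 709 isoforms had reads, with a median of 3 a gene, and 168 members (76.7%) had 2 or more. Annotated protein-coding transcripts took 60.2% of the member reads in the control library and 55.1%, 54.4% and 53.8% in Tut1 KO, P53 KO and double KO. In all protein-coding genes with 40 or more reads they took 75.7%, 73.9%, 74.4% and 74.2%. Retained-intron transcripts took 1.75% (1.55% to 1.98%, Wilson) in the control and 3.45% (3.14% to 3.8%), 2.96% (2.67% to 3.27%) and 3.34% (3.02% to 3.69%) in the other 3, whose intervals overlapped. In the same protein-coding genes the retained-intron share was 1.22%, 1.97%, 1.84% and 1.79%. It was therefore lowest in the control in Zfp genes and in all genes, and higher in Zfp genes in every library.

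Annotated isoforms were then sorted by how many of the gene's fingers they code for, in 175 members with at least 1 finger and an annotated isoform with reads. Isoforms that code for all fingers took 83.5% (82.7% to 84.3%) of these reads in the control and 75.5% (74.5% to 76.5%), 76.4% (75.4% to 77.4%) and 75.7% (74.6% to 76.7%) in Tut1 KO, P53 KO and double KO. Coding isoforms with fewer fingers took 8.01%, 10.5%, 11.0% and 10.9%, and isoforms not annotated as protein-coding took 8.16%, 13.97%, 12.5% and 13.3%. The control stood apart from the 3 libraries with Cre, which overlapped. Other genes were not sorted by fingers, so no share over all genes stands beside these values or the counts of members below. In all protein-coding genes with 40 or more reads, processed transcripts took 0.550%, 0.726%, 0.687% and 0.680%. This share and that of retained introns, given above, were thus lowest in the control there too. Without Zfp266, Zfp263, Zfp655 and Zfp868, the genes described next, the share with all fingers was 83.3%, 76.7%, 77.3% and 76.9%. Of 82 members with at least 20 such reads in both libraries, 12 had a share at least 10 percentage points lower in Tut1 KO than in the control and 1 had a share at least 10 points higher, while 44 had exactly equal shares, 39 of them at 100% and 5 at 0% in both libraries, which is no sign of stability. The corresponding counts were 6 lower and 2 higher of 84 in P53 KO against the control, 10 and 1 of 82 in double KO against the control, 3 and 2 of 78 in double KO against P53 KO, 2 and 3 of 79 in double KO against Tut1 KO and 5 and 2 of 83 in Tut1 KO against P53 KO.

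**Figure D4:**
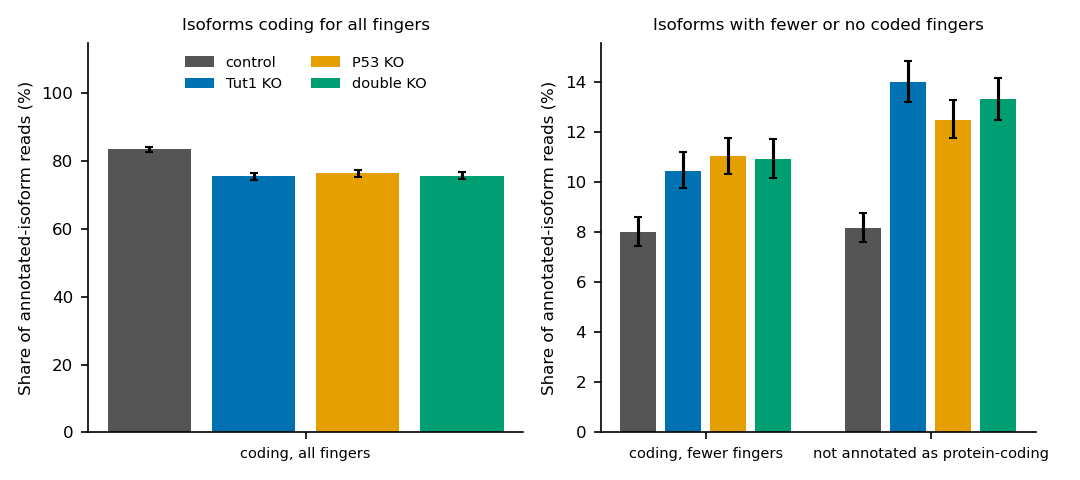
Share of annotated-isoform reads (%, vertical axis) of 175 Zfp genes that fall on isoforms coding for all fingers of the gene, for fewer fingers, or not annotated as protein-coding, in each of the 4 libraries, with 95% Wilson intervals. The control bar is highest for all fingers, 83.5% against 75.5% to 76.4%, and lowest in the other classes.

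Single isoforms were compared between pairs of libraries by their share of the gene's reads, with a two-sided Fisher's exact test adjusted over all isoforms tested and a minimum of 10 percentage points. Such a test compares 2 libraries, not the conditions. In Tut1 KO against the control, 33 of 232 Zfp isoforms tested were called, in 19 genes, or 14.2% against 8.66% of all 18376 isoforms. In P53 KO against the control, 36 of 231 were called (background 9.12%), and in double KO against the control 39 of 238 (background 6.49%). Between libraries that both had Cre no Zfp isoform was called. The counts were 0 of 234 in double KO against P53 KO (background 1.24%), with 19 at an unadjusted p under 0.05 in the exact test, 0 of 244 in double KO against Tut1 KO (0.15%), with 11, and 0 of 237 in Tut1 KO against P53 KO (0.222%), with 7. Over the isoforms of all genes 2183 of 17571, 1393 of 17348 and 1406 of 17119 were at that unadjusted p, in the same order. The diffSpliceDGE test of edgeR, with terms for Tut1 and Trp53 status, called 0 of 25395 isoforms for Tut1 status (0% of isoforms). It placed 2 of 394 Zfp isoforms, and 202 of all 25395 isoforms, at an unadjusted p under 0.05. Its estimate of the spread also takes in gene-level differences between libraries, so that these counts do not show that usage was alike.

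Of the 33 isoforms called in Tut1 KO against the control, 18 were annotated transcripts. All 8 of these whose share was lower code for every finger of their gene, as did 91 of the 135 annotated member isoforms tested (67.4%). Of the 10 whose share was higher in Tut1 KO, 4 code for all fingers, 2 for fewer and 4 are not annotated as protein-coding. In P53 KO and double KO against the control, 1 of 9 and 1 of 14 such isoforms with a lower share code for fewer fingers.

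Zfp266 was the clearest case. The gene codes for 9 fingers. Its transcript Zfp266-203, a processed transcript of 2 exons and 679 bases at chr9:20520508-20521410 (GRCm38, minus strand), had 2 of 75 gene reads in the control library (2.67%, 0.734% to 9.21%). It had 92 of 118 reads in Tut1 KO (78.0%, 69.7% to 84.5%), 64 of 82 in P53 KO (78.0%, 67.9% to 85.6%) and 72 in double KO (70.6%, 61.1% to 78.6%). Zfp266-202, the 9-exon transcript with all 9 fingers, had 37, 2, 0 and 5 reads, or 49.3%, 1.69%, 0% and 4.90%. A count of 0 of 82 leaves a share of up to 4.48% by the Wilson interval. The difference of Zfp266-203 between Tut1 KO and the control was 75.3 percentage points (adjusted p = 2.3e-25, Fisher's exact test). At the gene level Zfp266 passed the 2-fold rule upward in Tut1 KO. Its reads went from 75 to 118 while those of the short transcript without fingers went from 2 to 92, so that its other isoforms had fewer reads.

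Zfp263 differed in its start between the libraries. Zfp263-201 has 6 exons (chr16:3744093-3750781, GRCm38, plus strand), and Zfp263-207 begins between its exons 4 and 5 and keeps the last exons with all 9 fingers. Zfp263-201 had 34 of 47 reads in the control (72.3%, 58.2% to 83.1%) and 3 of 28, 3 of 35 and 3 of 22 in Tut1 KO, P53 KO and double KO (10.7%, 8.57% and 13.6%). Zfp263-207 had the other 13, 25, 32 and 19 reads. The difference was 61.6 points between Tut1 KO and the control (adjusted p = 7.6e-06, Fisher's exact test). The longer transcript was the main one in the control library alone.

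Zfp655 used another last part of the transcript. Zfp655-202 (chr5:145231723-145247302, GRCm38, plus strand) codes for 6 fingers and had 38 of 51 reads in the control (74.5%) and 25 of 59, 30 of 78 and 26 of 66 in Tut1 KO, P53 KO and double KO (42.4%, 38.5% and 39.4%). Zfp655-203, of 1150 bases, leaves the second exon for other exons that code for 0 fingers. It had 1, 29, 38 and 34 reads, or 1.96% (0.347% to 10.3%), 49.2% (36.8% to 61.6%), 48.7% (37.9% to 59.6%) and 51.5% (39.7% to 63.2%). The difference between Tut1 KO and the control was 47.2 points (adjusted p = 2.4e-07, Fisher's exact test).

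The spliced coding sequences at these choices are shown because they tell the isoforms apart in a read. Each line holds the last 30 bases of the exon before the junction in lower case and the first 30 bases of the next exon in capitals. For Zfp655 both lines start from the same exon, which ends at base 145233602 of chr5, and the next exon begins at 145235306 in Zfp655-203 and at 145242920 in Zfp655-202. For Zfp263-201 the junction joins exons 4 and 5 (bases 3746894 and 3748149 of chr16) and is absent from Zfp263-207.
Zfp655-203: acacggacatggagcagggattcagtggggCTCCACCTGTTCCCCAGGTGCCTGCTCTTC
Zfp655-202: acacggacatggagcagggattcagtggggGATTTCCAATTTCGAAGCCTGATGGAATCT
Zfp263-201: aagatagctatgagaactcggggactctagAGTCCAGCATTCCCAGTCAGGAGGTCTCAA

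Zfp868 and Zfp692 were the other genes with several of the 10 largest differences. Zfp868-202, with all 9 fingers, had 29 of 34 reads in the control (85.3%, 69.9% to 93.6%), 9 of 39 in Tut1 KO (23.1%, 12.6% to 38.3%), 8 of 18 in P53 KO (44.4%) and 17 of 42 in double KO (40.5%). An isoform of Zfp868 that the table names by a read had 0, 23, 5 and 11 reads, highest in Tut1 KO. Of 2 read-named isoforms of Zfp692, 1 had 44 of 51 reads in the control and 11 of 31, 11 of 29 and 10 of 22 in the others, and the second had 2, 14, 13 and 9. For Zfp609, 1 read-named isoform had 9 of 27 reads in the control and 17 of 23, 21 of 31 and 15 of 31 in the others, at 40.6 points between Tut1 KO and the control (adjusted p = 0.041, Fisher's exact test). The structure of read-named isoforms was not used here.

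Further called genes, chosen after their values were seen, did not all divide the libraries in the same way. Zfp68-202 had 34 of 103 reads in the control (33.0%) and 28 of 48, 30 of 61 and 20 of 61 in Tut1 KO, P53 KO and double KO (58.3%, 49.2% and 32.8%), so that double KO lay beside the control. A variant of the annotated Zfp277 transcript had 20.1%, 4.35%, 15.7% and 5.56% of its gene's reads, and a read-named isoform of Zfp445 had 3, 1, 1 and 10 reads, or 5.66%, 6.25%, 6.67% and 40%, highest in double KO. In the 3 genes that follow, the control stood apart from the libraries with Cre. Zfp37-201, with all 12 fingers, had 72.7% of its gene's reads in the control and 40.4%, 43.8% and 35.7% in Tut1 KO, P53 KO and double KO. Zfp932-201, a transcript of 451 bases that codes for none of the gene's 15 fingers, had 122 of 175 reads in the control (69.7%, 62.5% to 76.0%) and 183 of 205, 165 of 179 and 194 of 219 in the others (89.3%, 92.2% and 88.6%). For Zfp207 the annotated transcript Zfp207-203, with its 2 finger matches, had 5 of 817 reads in the control (0.612%) and 23 of 337, 28 of 245 and 26 of 481 in the others (6.82%, 11.4% and 5.41%).

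**Figure D5:**
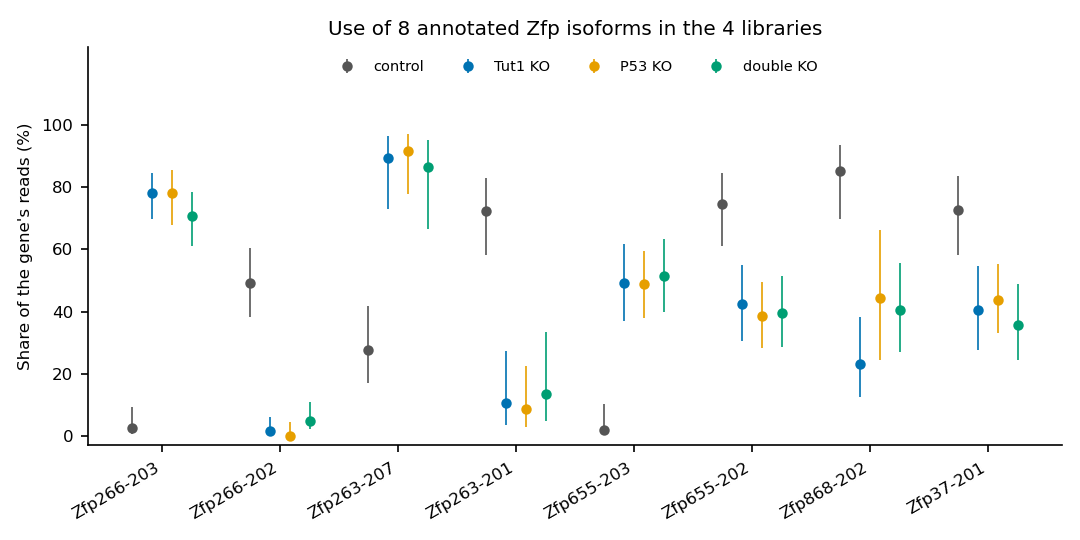
Share of the gene's reads (%, vertical axis) on 8 annotated Zfp isoforms in the control, Tut1 KO, P53 KO and double KO libraries, with 95% Wilson intervals. For each isoform the control point lies apart from the 3 libraries with Cre, for example 2.67% against 70.6% to 78.0% for Zfp266-203.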

How the data were processed

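Total RNA of primary mouse neural stem cells, 1 library for each of 4 groups named by the labels, was sequenced on Nanopore as PCR-amplified cDNA. The authors deposited 1 table of isoform counts, whole reads that were not normalized. The submitters' processing notes name mm10. The methods name minimap2 and FLAIR for long-read libraries of pallium tissue, not for these. The tool, filters and handling of reads that fit several genes are not given in the sources used here for this table. Entries that named no gene (17.2% to 30.2% of reads) were left out of library sizes and tests. The depth per library was 2863392 to 4244467 reads naming a gene.

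Isoform counts were summed per gene identifier, and symbols, lengths and biotypes came from GENCODE M21 (GRCm38). CPM used TMM library sizes. Genes were fitted with edgeR 4.0.16 (quasi-likelihood) with Tut1 and Trp53 status as terms, and DESeq2 1.42.0 was an alternative. The expression filter of edgeR kept 9882 genes. For pairs of libraries, log2 ratios had exact conditional 95% intervals, and medians used 0.5 CPM as pseudocount. Isoform usage was tested with Fisher's exact test (isoforms with 10 or more reads over both libraries, genes with 20 or more in each) and with diffSpliceDGE. The scripts were tested on simulated data. Finger and KRAB matches were read from translated GENCODE coding sequences, where the plan named RefSeq proteins, which were not used here. Exact Poisson, Wilson and conditional intervals cover counting error only.

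The members, the gene lists and the tests were chosen with earlier results of these data known. Genes named were the members of the lists, the 8 members with the highest mean CPM, up to 8 with the largest ratio past the 2-fold rule in Tut1 KO against control, double KO against P53 KO and P53 KO against control, those nearest the read limit, any with an edgeR call, and genes of the 10 largest usage differences. Any other is said to be chosen after its values were seen. Alternatives were another scaling, filter, pseudocount, read minimum, fold, symbol rule, usage limit and KRAB pattern, and fits with single terms or without 1 library.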

Additional observations from a re-analysis of the deposited data

Results flagged for a closer look

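Of the Zfp genes, Zfp410 and Zfp740 were past the 2-fold rule in opposite directions in the 2 comparisons of Tut1 that share no library, and the difference between the comparisons was not tested. For Zfp410 the log2 ratio was -1.61 in Tut1 KO against control and 1.01 in double KO against P53 KO, a difference of -2.62. For Zfp740 the ratios were -1.79 and 4.09, a difference of -5.89, and the second rests on 1 read in the library labelled P53 KO. With 1 library a group, each direction is that of a single pair. Xist reads were present in Tut1 KO and P53 KO and absent from control and double KO, and Y-linked reads were in the latter 2 alone, so that the 2 comparisons run in opposite directions for these genes, whose part in the result was not tested.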

How the results depend on the processing

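No paired analysis was possible because each group has 1 library. No Zfp gene was called for Tut1 status under any scaling, filter or tool tried, or with Trp53 left out of the fit. Without 1 library and the Trp53 term, calls for Tut1 status ranged from 0 to 12 over all genes (12 without the control library and 6 without that labelled P53 KO) and stayed at 0 for Zfp genes. The same fits for Trp53 status gave 0 to 1474 genes (of 10567, 13.9%) and 0 to 19 Zfp genes (of 219, 8.68%), and the highest counts came without the library labelled Tut1 KO, which sets the control alone against both libraries with Trp53 targeted. The counts over all genes were 15 without the control, 4 without P53 KO and 0 without double KO. Without an expression filter 2 genes were called for Trp53 status.

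With a fold of 1.5 more Zfp genes passed, 87 in Tut1 KO against control, 31 in double KO against P53 KO, 79 in P53 KO against control, 63 in double KO against control and 27 in double KO against Tut1 KO (39.9%, 14.2%, 36.2%, 28.9% and 12.4% of 218). Of all genes 42.3%, 18.5%, 44.3%, 34.9% and 11.8% passed. With members of 100 or more reads alone, the counts were 30, 7 and 29 in the first 3 of these, 1 in double KO against Tut1 KO and 4 in Tut1 KO against P53 KO, of 141 members, where 23.6%, 5.59%, 25.7%, 3.30% and 2.30% of all genes with such reads passed. The median log2 ratio of P53 KO to control was then 0.22, and that of double KO to control was 0.24 with library totals. The share of Zfp genes in protein-coding reads was 0.450%, 0.511%, 0.468% and 0.471% in the control, Tut1 KO, P53 KO and double KO libraries. On this share double KO lay beside P53 KO and below Tut1 KO, unlike on the share of reads naming a gene. At 20 percentage points, 22 Zfp isoforms were called in P53 KO against control (of 231, where 5.07% of all isoforms were called) and 24 in double KO against control (of 238, against 3.22%). With the start of the KRAB A box in place of its end, the median ratio of members with the match minus that of the others was 0.20 in Tut1 KO against control and -0.017 in P53 KO against control; the cause was not tested. An alternative added after the data were seen, members with transcripts over 2000 and up to 4000 bases alone, moved no median by 0.1 or more. Depth limits the single genes, with a median of 31 to 37 reads.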
